A study of Homo sapiens with 6 samples.

Results

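The genes described here are 10 genes of secreted growth factors and their receptors, measured in a human breast cancer line. They are the colony-stimulating factor genes CSF1, CSF2 and CSF3, the second CSF1 receptor ligand gene IL34, the IL-6 family ligand genes LIF, IL6 and IL11, and the receptor genes IL6ST, LIFR and OSMR. They were chosen by name, and all 10 were found among the 28979 gene IDs of the count files. The study sequenced messenger RNA of MDA-MB-231, a human breast cancer line of mesenchymal character without estrogen receptor, in 6 libraries, 3 labelled Con and 3 labelled Ang. Its stated design exposed these cells to exosomes, small vesicles shed by cells, that came from normal or hypertrophic cardiomyocytes, to look for targets of microRNAs, and its title names AC16, a human cardiomyocyte line. No label ties Con or Ang to a kind of exosome, a dose or a time, and none says whether separate cultures were used. Groups keep their label names here, and any p-value measures only library-to-library spread, which may be technical. In bulk RNA, fewer expressing cells and less RNA per cell cannot be told apart. The set was drawn up with earlier results of the same libraries known: CSF1 had passed the threshold in a fit with an added strand term, which is given below. The Ang against Con values of the 10 genes are therefore a description, not a test.

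CSF1 and IL-34 are ligands of one receptor, CSF1R, which macrophages need to survive and mature. CSF2, also called GM-CSF, and CSF3, also called G-CSF, act on myeloid cells through receptors of their own. IL-6, IL-11 and LIF each bind a receptor that pairs with gp130, the shared signalling chain encoded by IL6ST. IL-6 and IL-11 first bind IL6R and IL11RA, whereas LIF binds the LIFR protein, and oncostatin M can use the OSMR or the LIFR protein with gp130. Gp130 activates JAK kinases and the transcription factor STAT3, which induces the feedback inhibitor SOCS3. Breast cancer cells of mesenchymal character are known for secreting several of these factors, which act on the tumour cells themselves and on nearby myeloid cells.

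Total counts per library ran from 3369212 to 5437190. Vimentin (VIM), a mesenchymal filament gene, had 833 to 1103 CPM (counts scaled to library size with TMM factors). Of 6 luminal breast genes, ESR1 (0 to 3 counts), PGR (0 to 1 count) and CDH1 (0 to 12 counts) were too low to be tested, whereas ERBB2 (297 to 605 counts), EPCAM (30 to 60 counts) and GATA3 (5 to 39 counts) were tested. The list summed to 111 to 141 CPM in Con and 99.9 to 131 CPM in Ang. Among markers of cell types that could have been carried along, 1 of 12 cardiomyocyte genes, NPPA, had enough counts to be tested. The summed level of the cardiomyocyte list was 7.39 to 19.2 CPM in Con against 7.92 to 14.2 CPM in Ang. NPPA had 22 to 55 counts. NPPB and ACTN2 had 0 to 8 counts, TNNI3 0 to 7, PLN 0 to 5, and MYL2, MYH6 and RYR2 0 to 1. The macrophage and leukocyte list also had 1 of 12 genes tested. Its sum was 5.41 to 7.55 CPM in Con against 5.55 to 9.24 CPM in Ang, with CSF1R as the most counted gene. CD68 had 1 to 11 counts, CD14 0 to 8, AIF1 0 to 3 and ITGAM 0 to 1. In fibroblast and endothelial lists 2 of 9 and 4 of 8 genes were tested, with sums of 12.7 to 17.0 and 40.5 to 48.3 CPM in Con against 10.3 to 10.7 and 28.2 to 46.4 CPM in Ang. Their part in the results below was not tested.

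One property of the counts bears on each gene. Over 250 pairs of a non-coding gene lying under a coding gene on the other strand, the non-coding gene held more counts per base, with a median ratio from 23.2 in Con replicate 2 to 41.1 in Con replicate 3, and 32.9 to 35.4 in the Ang libraries. The strand setting of the counter is not given in the sources used here. Which strand the counted reads came from was not tested, so a count may not be of the gene it is listed under. Exons of CSF1, CSF2, CSF3, IL34 and IL11 overlap no annotated exon of the other strand. How the strand setting affected the counts of these genes was not tested. The other 5 genes have 3.19% to 20.7% of their exon bases under such exons.

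**Figure D1:**
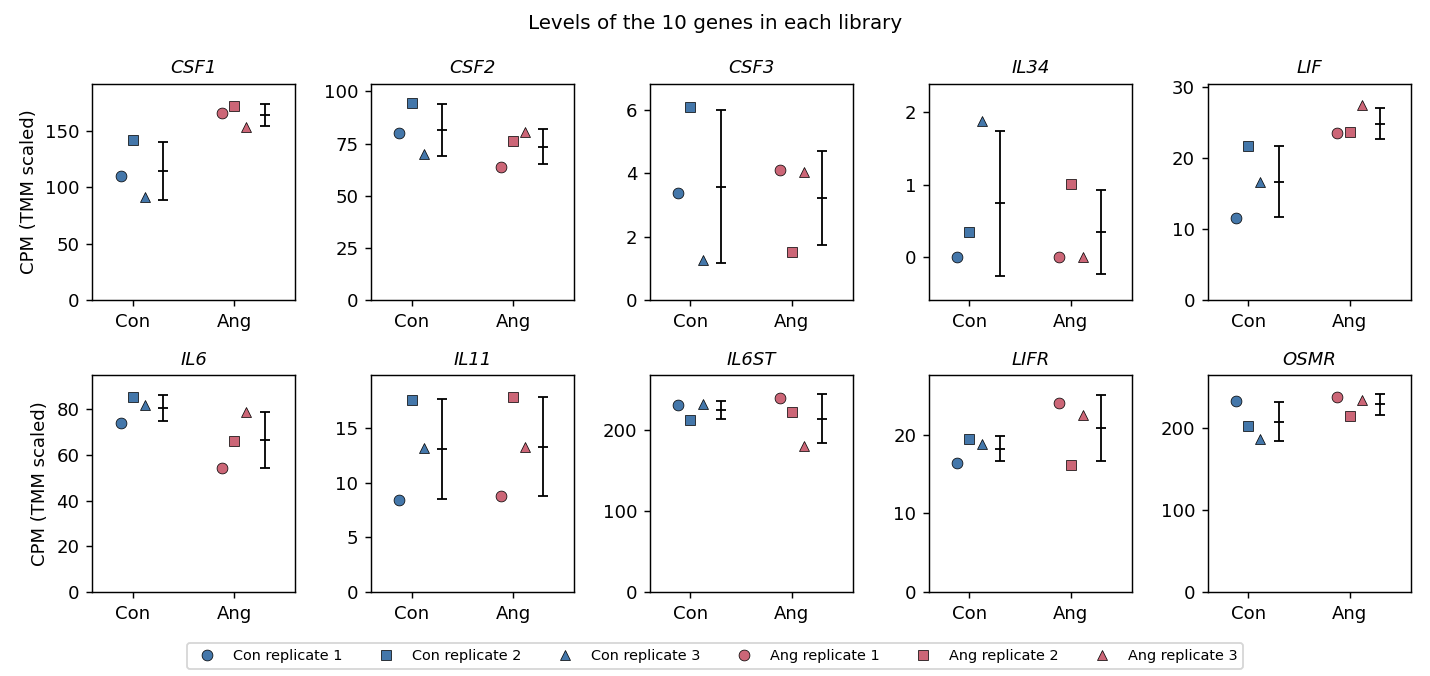
Level of each of the 10 genes in each library, in TMM-scaled CPM on a linear axis, with Con in blue and Ang in red. Black bars give each group's mean ± SD (n = 3); all 3 Ang libraries lie above all 3 Con libraries for CSF1 and LIF, and the groups overlap for the other genes.

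Among the colony-stimulating factors, CSF1 was the most counted and CSF2 the highest per length. CSF1 (ENSG00000184371, chr1:109910242-109930992, plus strand, GRCh38) had 110.0, 142 and 91.5 CPM in Con replicates 1 to 3, and 166, 172 and 154 CPM in Ang replicates 1 to 3. Each Ang library lay above each Con library, and Con replicate 2 was the nearest to the Ang range. The means were 115 ± 25.7 CPM in Con against 164 ± 9.56 CPM in Ang (SD, n = 3 each). The log2 fold change, Ang minus Con, was 0.51 ± 0.18 (SE), a fold of 1.43 with a 95% interval of 1.12 to 1.82.

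CSF2 (ENSG00000164400, chr5:132073790-132076170), the GM-CSF gene, had 79.8, 94.5 and 69.8 CPM in the Con libraries and 64.0, 76.1 and 80.3 CPM in the Ang libraries. The groups overlapped, with Con replicate 2 highest and Ang replicate 1 lowest, and the log2 fold change was -0.15 ± 0.19. CSF3 (ENSG00000108342, chr17:40015361-40017813), the G-CSF gene, had 16, 36 and 4 counts in Con and 14, 6 and 14 counts in Ang. It spread more within each group than between them, at 3.57 ± 2.42 and 3.22 ± 1.48 CPM, and a 95% interval of 0.345 to 2.18 for the fold left a halving or doubling possible at this depth. Its log2 fold change was -0.21 ± 0.68, and 0.42 without Con replicate 2. IL34 (ENSG00000157368, chr16:70579895-70660682) had 0, 2 and 6 counts in Con and 0, 4 and 0 counts in Ang, and 4 of the 6 libraries lay at or below the 3 counts that a count of 0 allows. It was not tested, and no difference could be detected at this depth.

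The IL-6 family ligands were IL6, LIF and IL11, in that order by mean level per length. LIF lay above IL11 per length in only 2 of 6 libraries. IL6 (ENSG00000136244, chr7:22725884-22732002) had 74.1, 85.2 and 82.1 CPM in Con against 54.3, 66.1 and 78.9 CPM in Ang. Ang replicates 1 and 2 lay below all Con libraries and Ang replicate 3 lay within their range. The means were 80.5 ± 5.71 and 66.4 ± 12.3 CPM and the log2 fold change was -0.28 ± 0.19. LIF (ENSG00000128342, chr22:30240447-30246851, minus strand), which encodes leukemia inhibitory factor, had 11.6, 21.6 and 16.7 CPM in Con against 23.5, 23.7 and 27.4 CPM in Ang. It was the other gene whose groups did not overlap, again with Con replicate 2 nearest to Ang. The means were 16.6 ± 5.01 and 24.9 ± 2.23 CPM, and the log2 fold change was 0.57 ± 0.29, a fold of 1.49 with a 95% interval of 1.01 to 2.20.

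IL11 (ENSG00000095752, chr19:55364389-55370463, minus strand) had 8.45, 17.6 and 13.2 CPM in Con replicates 1 to 3 and 8.80, 17.9 and 13.3 CPM in Ang replicates 1 to 3. The libraries of the same number lay close together, the group means of 13.1 and 13.3 CPM were nearly the same, and the log2 fold change was 0.03 ± 0.34. Its 95% interval in fold was 0.638 to 1.63. Over all genes the libraries of the same number shared little, with correlations of their deviations of 0.036 to 0.068. Pairs of unlike number had -0.070 to 0.030.

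IL6ST and OSMR were the most counted genes of the set, whereas LIFR was near LIF in CPM. Per kb of exon LIFR lay lower, at 1.36 to 2.03 CPM against 2.93 to 6.91 for LIF. IL6ST (ENSG00000134352, chr5:55935095-55994993, minus strand), the gp130 gene, had 230.8, 212 and 232 CPM in Con against 239.7, 222 and 181 CPM in Ang, with Ang replicates 1 and 3 as the highest and lowest library. OSMR (ENSG00000145623, chr5:38845858-38945596), the oncostatin M receptor gene, had 233, 202 and 187 CPM in Con against 237, 214 and 234 CPM in Ang. LIFR (ENSG00000113594, chr5:38474963-38608354, minus strand), the LIF receptor gene, had 16.5, 19.4 and 18.9 CPM in Con against 24.1, 16.1 and 22.5 CPM in Ang. The groups overlapped for all 3 receptors, with log2 fold changes of -0.07 ± 0.17 for IL6ST, 0.14 ± 0.17 for OSMR and 0.19 ± 0.29 for LIFR. Their 95% intervals on the log2 scale were -0.41 to 0.27, -0.20 to 0.48 and -0.38 to 0.76.

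Of the 10 genes, 9 had enough counts to be tested, and edgeR's quasi-likelihood test, adjusted by Benjamini-Hochberg over 14547 genes, called 0 of them, as it called 0% of all genes, with a smallest adjusted p of 0.999. At an unadjusted p under 0.05 stood 2 of the 9, CSF1 and LIF, beside 494 genes (3.40%) overall by edgeR, 411 by DESeq2 and 447 by limma-voom. The groups did not overlap for 2 of the 9 tested genes, CSF1 and LIF, both higher in Ang, against 3.62% of all tested genes in that direction and 8.16% in either. As values of this contrast led to the set, nothing is read from these counts. Log2 fold changes were above 0 for 5 genes and below 0 for 4, with a median of 0.03, against -0.01 over all tested genes. For 7 of the 9 the 95% interval lay within 2-fold in both directions, and LIF and CSF3 were the exceptions.

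**Figure D2:**
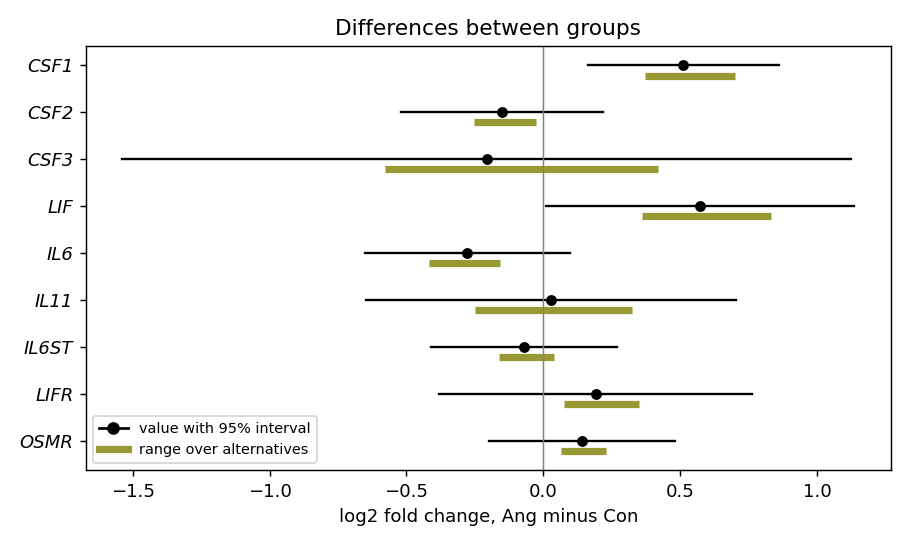
Log2 fold change, Ang minus Con, of the 9 tested genes (points) with 95% intervals (black lines), and the range over the settings that change 1 choice at a time (olive bars). The strand ratio term together with leaving out Con replicate 2 is not in the bars. The CSF1 value was 0.51 with alternatives from 0.37 to 0.70, and CSF3, IL11 and IL6ST have bars on both sides of 0.

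CSF1 was the only member that any setting called. Without Con replicate 2, the library with the lowest strand ratio, the CSF1 difference was 0.70 ± 0.14 (edgeR adjusted p 0.00666), one of 40 genes called in that fit (0.269% of those tested). With the strand ratio of each library as a term in the fit of all 6 libraries it was 0.56 ± 0.12 (edgeR adjusted p 0.0375), one of 4 genes called (0.0275%) and of those higher in Ang (0.0206%). This second value is the one that led to the set. With both changes together the value was 0.25 ± 0.37 (edgeR adjusted p 0.974), 1 other gene was called (0.00673%), and the term and the group had a correlation of -0.94 over 5 libraries and can hardly be told apart. Without Con replicate 3, the library with the lowest CSF1 level, the value was 0.37 ± 0.17, and without Con replicate 1 no member was among the called genes (0.00668%). Over all settings the adjusted p of CSF1 ran from 0.00666 to 0.99997.

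**Figure D3:**
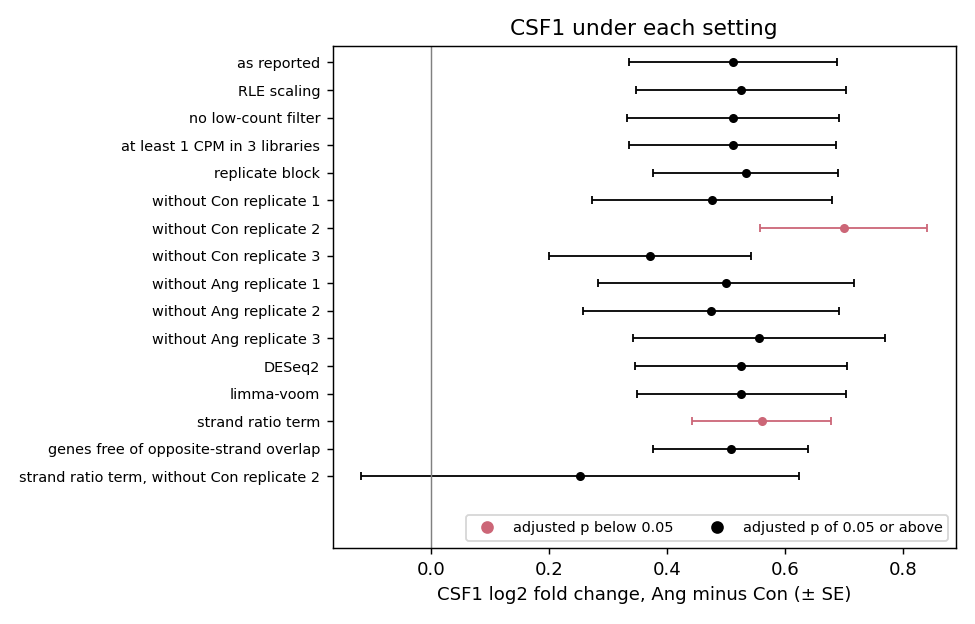
Log2 fold change of CSF1, Ang minus Con, ± SE, as reported and under each of 15 other settings. The value is above 0 in each, from 0.25 to 0.70, and the 2 settings in red, without Con replicate 2 (0.70) and with the strand ratio term (0.56), had an adjusted p below 0.05.

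Per exon length the levels fell into steps. CSF2 had 81.3 to 120.1 CPM per kb of annotated exon over the 6 libraries, above IL6 in each library, and was above 98.5% of 11107 tested coding genes. IL6 (26.2 to 41.2 CPM per kb), OSMR (26.0 to 33.1), CSF1 (16.9 to 31.8) and IL6ST (19.5 to 25.8) followed, and each overlapped its neighbour in this order. Next came LIF (2.93 to 6.91 CPM per kb) and IL11 (3.16 to 6.70), which overlapped each other and lay below IL6ST in 6 of 6 libraries. LIFR (1.36 to 2.03 CPM per kb) lay below IL11 in 6 of 6 libraries and overlapped CSF3 (0.567 to 2.74). IL34 (0 to 0.845) came last by mean and overlapped CSF3, which was higher in 5 of 6 libraries. The median tested coding gene had 3.53 CPM per kb. Exon length here is the union over all annotated transcripts, so a gene with long unused exons is placed too low. The strand setting of the counter, which is not given, may also shift levels between genes. The order and the percentile therefore describe counts and may not rank messenger RNA.

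**Figure D4:**
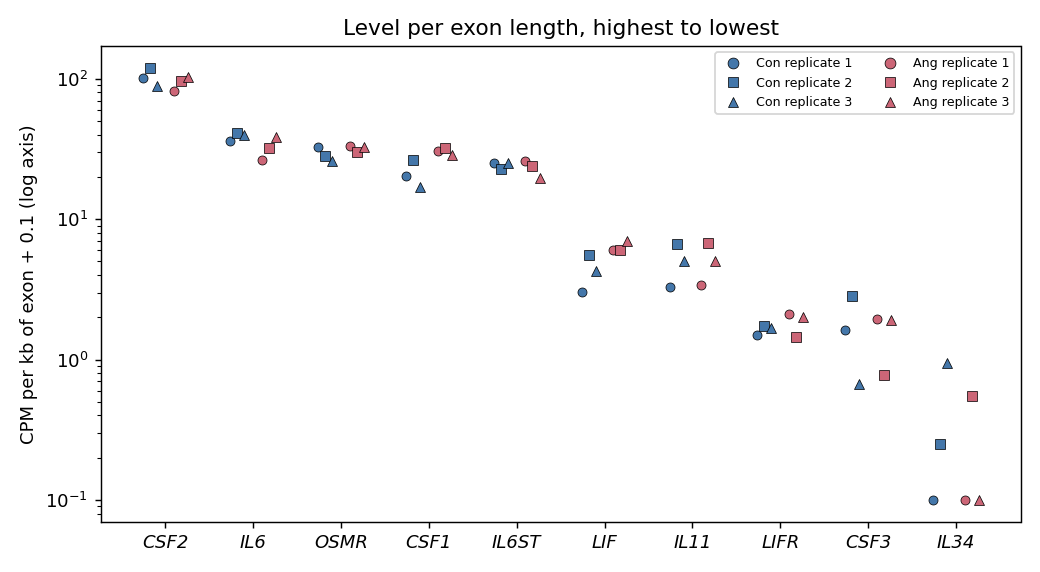
Level per kb of annotated exon of the 10 genes in each library, in CPM per kb with 0.1 added on a log axis, ordered by the mean. CSF2 stands above the rest at 81.3 to 120.1, and LIFR, CSF3 and IL34 stand lowest.

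The promoters of the 2 ligand genes highest per length, CSF2 and IL6, are shown because both genes are textbook targets of signal-driven transcription factors. RefSeq sequences on GRCh38.p14 were matched for 6 of the 10 genes, from 250 bases before the start to 50 after it. They were searched on both strands for the AP-1 motif TGANTCA, the STAT motif TTCNNNGAA and the NF-kB motif, with matches in capitals. The CSF2 window (chr5:132073539-132073838, plus strand) held a STAT match that begins 190 bases before the start, and the IL6 window (chr7:22726950-22727249, plus strand) an NF-kB match that begins 73 bases before it.
CSF2: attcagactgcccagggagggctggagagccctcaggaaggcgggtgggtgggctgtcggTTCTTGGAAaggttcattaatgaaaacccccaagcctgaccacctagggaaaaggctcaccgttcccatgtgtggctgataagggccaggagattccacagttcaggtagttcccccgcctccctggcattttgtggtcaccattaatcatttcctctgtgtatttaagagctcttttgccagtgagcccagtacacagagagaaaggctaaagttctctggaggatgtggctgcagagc
IL6: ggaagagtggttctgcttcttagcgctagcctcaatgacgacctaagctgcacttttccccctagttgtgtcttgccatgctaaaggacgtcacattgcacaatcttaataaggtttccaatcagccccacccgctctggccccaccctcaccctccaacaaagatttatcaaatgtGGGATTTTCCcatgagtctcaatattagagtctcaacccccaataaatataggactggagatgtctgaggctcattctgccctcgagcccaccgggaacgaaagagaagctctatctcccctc

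Over all 35116 promoter windows of this length 7.66% held a STAT match, 11.3% an NF-kB match and 7.71% an AP-1 match. Among the 6 matched genes each motif was found in 2: AP-1 in IL11 and OSMR, STAT in CSF2 and LIFR, and NF-kB in IL6 and IL6ST. The motifs can overlap by chance, and a match of letters is a description, not a bound site. Nothing measured here bears on binding.

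Partners on the other strand were counted for 5 of the genes. ENSG00000262211, a non-coding gene whose 797 exon bases all lie under the IL6ST exons, had 4314, 3026 and 2372 counts in Con and 2373, 2499 and 2493 counts in Ang, against 626 to 1254 counts for IL6ST itself. Per base it held 28.1 to 46.4 times the counts of IL6ST. The CPM means of this gene were 723 ± 201 in Con and 682 ± 46.6 in Ang, so the groups overlapped as they did for IL6ST. LIF-AS2, of which 22.0% of the exon bases lie under LIF, held 18.8 to 42.3 times the counts per base of LIF. Its level was 93.4 ± 10.1 CPM in Con against 121 ± 11.6 CPM in Ang, and its groups did not overlap, in the same direction as LIF (0.38 ± 0.18 on the log2 scale).

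IL6-AS1, with 428 bases under IL6, held fewer counts per base than IL6, by ratios of 0.136 to 0.309. It had 15.0, 10.1 and 12.0 CPM in Con against 8.22, 5.80 and 6.93 CPM in Ang, with all Ang libraries below all Con libraries, and its log2 fold change of -0.82 ± 0.40 had the sign of that of IL6. The share of all tested genes with Ang below Con in this way was 4.54%. Neither antisense gene was called (edgeR adjusted p 0.999 for both). STEAP1B shares 46 bases with IL6 and RICTOR 229 bases with OSMR, and both held fewer counts per base than the gene they overlap. LIF-AS1 had 0 to 5 counts and LIFR-AS1 had 0 to 4 counts.

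**Figure D5:**
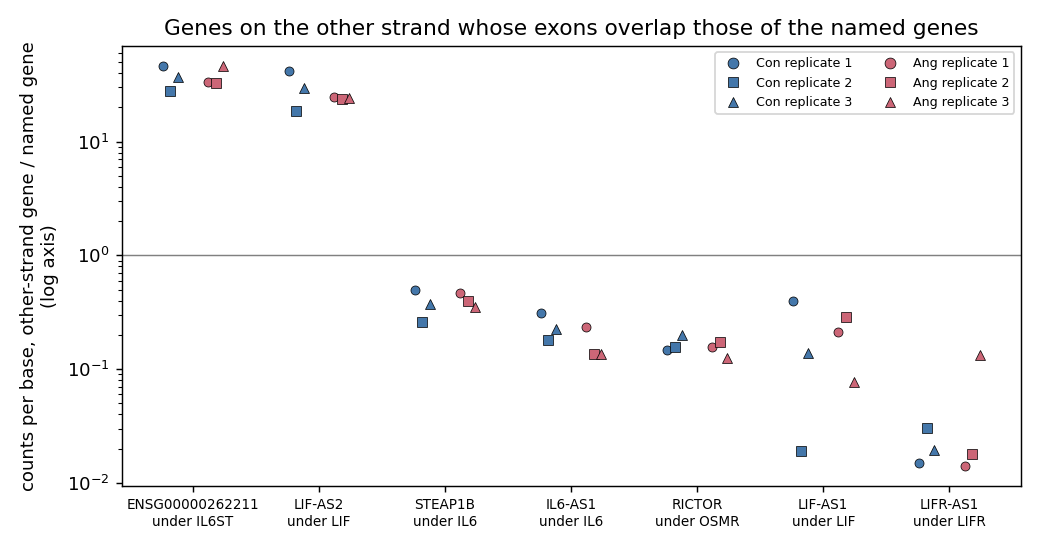
Counts per base of each gene on the other strand divided by those of the gene it overlaps, in each library, on a log axis, with 0.5 added to each count; the grey line marks equal counts per base. ENSG00000262211 over IL6ST and LIF-AS2 over LIF lie between 18.8 and 46.4, and the other partners lie below 1.

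The rest of the pathway was followed in 6 lists of 61 genes, of which 58 were in the files and 44 were tested. None of the 44 was called by edgeR (0% of all genes), 28 had a value above 0, and the median log2 fold change was 0.07. The groups did not overlap for 4 of the 44, SOS1, PIAS3, HIF1A and ADAM10, against 8.16% of all tested genes. Among other ligands, CLCF1, a cytokine gene of the IL-6 family, had 4.15 ± 2.07 CPM in Con against 4.62 ± 1.71 CPM in Ang, with overlapping groups, and no gene of this list was called.

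Of 11 ligand-binding receptor genes, the most counted was IL31RA, a receptor gene for IL-31, with 21 to 138 counts. IL6R, the IL-6 binding receptor gene, had 4, 6 and 4 counts in Con and 5, 0 and 0 counts in Ang, and IL11RA, that of IL-11, had 0 to 10 counts. CSF1R had 14 to 22 counts in each library, 0.459 to 1.34 CPM per kb, against the 16.9 to 31.8 CPM per kb of its ligand gene CSF1. CSF2RA, the GM-CSF binding chain gene, had 8 to 67 counts (a log2 fold change of 0.20 ± 0.45, and 0.81 without Con replicate 2), CSF2RB, its signalling chain gene, had counts in 1 of 6 libraries, and so did CSF3R, the G-CSF receptor gene. At 0 counts a library could still hold up to 3, which is 0.507 to 0.944 CPM. SDC1, a proteoglycan gene whose product can bind IL-34, had 11.3 ± 4.71 and 13.3 ± 1.87 CPM. None of the 5 tested receptors of 11 was called, with 3 values above 0.

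Downstream of the receptors, 11 of 12 kinase, STAT and adaptor genes were tested, with 7 values above 0, a median of 0.04 and 0 called. STAT3 had 34.5 ± 5.32 CPM in Con against 36.3 ± 3.43 CPM in Ang, and JAK1, the main gp130 kinase gene, had 78.2 ± 6.78 and 79.5 ± 5.31 CPM. SOS1, a RAS exchange factor gene, had 24.4 ± 1.78 and 33.5 ± 1.22 CPM (0.46 ± 0.25) without overlap. GAB1, a docking protein gene, had -0.64 ± 0.65 and SHC1, an adaptor gene, 0.21 ± 0.22. 

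Of the feedback inhibitors 8 of 10 were tested and 0 called, with 5 values above 0 and a median of 0.09. SOCS3, the classic STAT3-induced inhibitor gene, had 18, 36 and 6 counts in Con and 10, 11 and 8 counts in Ang. SOCS2, an inhibitor of cytokine and growth hormone signalling, had 77 counts over Con and 20 over Ang, a depth-scaled ratio of 0.332 with an exact binomial interval of 0.192 to 0.548. CISH, a STAT5-induced inhibitor gene, had 10 and 36 counts, a ratio of 4.59 (2.23 to 10.4), and 9 of the 10 Con counts were in Con replicate 3. Its log2 fold change was 1.98 ± 0.92, 4.81 without Con replicate 3, 1.33 without Con replicate 1 and 1.37 without Con replicate 2. These intervals cover counting error only, and the 2 groups overlapped for both genes. PIAS3, an inhibitor of STAT3, had 29.3 ± 5.18 and 39.6 ± 3.12 CPM (0.43 ± 0.24), without overlap.

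Textbook STAT3 target genes gave 13 tested of 15, 10 values above 0, a median of 0.07 and 0 called. HIF1A, a hypoxia factor gene, had 574 ± 86.4 CPM in Con against 460.5 ± 18.4 CPM in Ang (-0.32 ± 0.17), with all Ang libraries lower. BCL3 had 5.78 ± 1.73 and 9.40 ± 4.68 CPM and BCL6 13.1 ± 5.54 and 17.9 ± 1.26 CPM, both encoding transcriptional regulators. Of the 5 genes for shedding and ligand processing, all tested and 0 called, ADAM10, a protease gene that can release membrane-bound receptors and ligands, had 99.1 ± 13.4 and 125 ± 5.41 CPM (0.33 ± 0.18) without overlap. RHBDF2, which encodes a partner of the protease ADAM17, had 20.4 ± 8.99 and 30.5 ± 6.32 CPM (0.56 ± 0.27), and ADAM17 had a log2 fold change of -0.15 ± 0.20.

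The genes whose log2 CPM followed CSF1 most closely over the 6 libraries were CYBRD1, a ferric reductase gene (Pearson r 0.999), ADAM10 (0.995) and TEAD1, a partner of YAP (0.989). They are the top 3 of 7684 coding genes of at least 10 CPM, and over only 6 libraries, which differ in depth and strand ratio, the values are a description. CYBRD1 had 55.8, 70.3 and 47.8 CPM in Con against 77.8, 80.9 and 74.8 CPM in Ang, so that Con replicate 2 again lay nearest to Ang and Con replicate 3 lowest. Within the set the highest r was 0.77, between CSF1 and LIF, followed by 0.71 between CSF2 and IL6, and the lowest was -0.59, between IL11 and OSMR.

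As the study searched for microRNA targets, 13 microRNAs of cardiac or vesicle literature were matched by their seeds to the 3′ untranslated regions, taking for each gene the longest one in GENCODE 29. A match is the reverse complement of bases 2 to 8 of the microRNA. The regions of LIFR (6632 bases) and IL6ST (7641 bases) held 10 and 8 matches, LIF held 3, IL11 and IL34 held 2 each, CSF1, CSF2 and OSMR held 1 each, and IL6 (429 bases) and CSF3 (854 bases) held 0. The median region over 11072 tested genes was 1442 bases long, and LIFR and IL6ST, with most of the matches, had the longest regions of the set. No microRNA level is analysed here, and these matches say nothing of use.

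Every match of CSF1, LIF and OSMR is shown with its microRNA, CSF1 and LIF because their groups did not overlap and OSMR as the receptor gene with a single match. The microRNA sequences are from RefSeq, and capitals mark the seeds and the matched bases.
miR-1-3p: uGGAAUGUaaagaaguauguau
CSF1, miR-1-3p match: tgcactttgACATTCCcaagaggga
miR-26a-5p: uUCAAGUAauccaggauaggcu
LIF, miR-26a-5p match: acacagaggTACTTGAgggggactg
miR-29b-3p: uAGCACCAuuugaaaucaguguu
LIF, miR-29b-3p match: ttaacttatTGGTGCTttcagtggc
miR-199a-5p: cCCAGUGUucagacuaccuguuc
LIF, miR-199a-5p match: ggaaggaagACACTGGgaggaggag
let-7a-5p: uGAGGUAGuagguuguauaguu
OSMR, let-7a-5p match: ttttgatgaCTACCTCagaacataa

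The CSF1 match lies at chr1:109929912-109929918 on the plus strand, and 13.9% of the 11072 genes hold a match of this seed. The LIF matches lie on the minus strand at chr22:30242705-30242711, chr22:30242549-30242555 and chr22:30242984-30242990, for seeds that 14.4%, 16.9% and 14.6% of the genes hold. The OSMR match to let-7a-5p, whose seed 11.1% of the genes hold, lies at chr5:38934200-38934206.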

How the data were processed

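The authors deposited raw read counts by Ensembl gene, in whole numbers, 1 file per library, made with HTSeq 0.9.1 on GRCh38 per the submitters' processing notes, which also name DESeq 1.39.0. Per the labels' protocols, libraries were made from poly-A selected RNA. For the aligner, annotation release and strand setting: not given in the sources used here. Symbols, coordinates and exons came from GENCODE 29 (28192 of 28979 IDs matched) and overlaps from bedtools 2.31.1. In R 4.3.3, edgeR 4.0.16 kept 14547 genes (filterByExpr), scaled by TMM and tested Ang against Con by quasi-likelihood with Benjamini-Hochberg adjustment at 0.05. Log2 fold changes are Ang minus Con ± SE, and CPM is TMM scaled. The script was tested on simulated data. Within groups, pairs of libraries differed by 3.60 to 12.8 in chi-square per gene, above sampling noise. Members, lists, named-gene rule (up to 3 tested genes per pathway list by smallest p, the top 2 by CPM per marker list, other-strand partners and the 3 genes most like CSF1) and alternatives were chosen with earlier results of these data known. Alternatives were RLE scaling, other low-count filters, a replicate block, each library left out, DESeq2 1.42.0, limma-voom (limma 3.58.1), a strand ratio term and genes without opposite-strand overlap. Other genes (ESR1, PGR, CDH1, GATA3, NPPB, ACTN2, TNNI3, PLN, MYL2, MYH6, RYR2, CD68, CD14, AIF1, ITGAM, IL6R, IL11RA, IL31RA, CSF2RB, CSF3R, STAT3, JAK1, SOCS3) were named for their role or level, after their values were seen. Promoter and microRNA sequences came from RefSeq (GRCh38.p14 for promoters). One gene that the naming rule picked is not reported here.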

Additional observations from a re-analysis of the deposited data

How the results depend on the processing

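The count of 0 called genes, 0 called members and 0 called pathway genes held under RLE scaling, no low-count filter, at least 1 CPM in 3 libraries, DESeq2, limma-voom and genes free of opposite-strand overlap. Leaving out 1 library gave 0 to 40 called genes and 0 to 1 called members: 40 genes and 1 member (CSF1) without Con replicate 2, and 1 gene without Con replicate 1. The strand ratio term gave 4 genes and 1 member (CSF1), and together with leaving out Con replicate 2, chosen after seeing the data, 1 gene and 0 members; the cause was not tested. Pathway genes stayed at 0 called in every setting run. The replicate block also gave 0 genes, 0 members and 0 pathway genes, and CSF1 was 0.53 ± 0.16 with it. Same-numbered libraries had correlations of deviations of 0.036 to 0.068 and other pairs -0.070 to 0.030. Each same-numbered pair lay above every other pair, but all values were small. Whether the numbers pair the libraries was not tested. Of 662 alternative values of 46 named genes, 660 kept their side of the threshold and 2, both of CSF1, passed it. Among the members, signs changed without a call for CSF3, IL11 and IL6ST. CSF3 changed without Con replicate 2, without Ang replicate 2 and with the strand ratio term. IL11 changed without Con replicate 1 or Ang replicate 2, and IL6ST without Ang replicate 3. Under at least 1 of these settings signs also changed for other named genes. Among them were CLCF1, CSF1R, CSF2RA, IL31RA, SDC1, STAT3, JAK1, ERBB2, EPCAM, NPPA, RICTOR, STEAP1B and ENSG00000262211. With the term and without Con replicate 2 together, the signs of the members CSF3, IL6 and IL11 changed, with SEs of 2.57, 0.49 and 1.10. So did those of some other named genes, among them CSF2RA, IL31RA, JAK1 and SHC1. Depth limits CSF3 and IL34 most.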
